A study of Mus musculus with 96 samples.

Results

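Lowering of RYBP in R1 mouse embryonic stem cells (ESCs) was followed by RNA-seq in 4 of the 96 samples of the series: 2 libraries from cells carrying an empty vector (shEV) and 2 from cells carrying an shRNA against Rybp (shRybp). The members are all genes of the knockdown count table, 37620 in number once the rows that name no gene were dropped, of which 16538 had enough counts to be tested. The comparison asks which genes, pathways and lineage programmes move in ESCs when RYBP is depleted. R1 is a wild-type ESC line, and all 4 cultures were kept in serum with 1000 U/mL of LIF, the cytokine that holds mouse ESCs in self-renewal. For RNA extraction the labels name Trizol, while the study's methods describe a column kit. The number of shRNA sequences, the days of knockdown and the strandedness of the libraries are not given in the sources used here. Nothing in the labels says that the 2 libraries of a group came from separate cultures, so the p-values measure the spread between these libraries, which may be technical. For a set of values, the knockdown was placed beside a knockout: Rybp+/+ and Rybp-/- ESCs of the floxed line R7.15, 2 libraries each, the second group treated with 4-hydroxytamoxifen (4-OHT) at 5 µM over 4 days to delete Rybp, all grown in the same serum and LIF.

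RYBP is a subunit of the variant Polycomb repressive complexes 1 (PRC1), in which the E3 ligases RING1A and RING1B, a PCGF protein and either RYBP or its paralog YAF2 place ubiquitin on histone H2A at CpG-rich promoters. In ESCs these complexes are best known for keeping developmental regulators and, in the complex with PCGF6, MGA, MAX, L3MBTL2 and E2F6, germline genes at low level. RYBP also acts outside PRC1: it was first found as a binding partner of RING1 and YY1, and it can stabilise p53 through MDM2.

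The gene counts summed to 41697967 and 38961268 in shEV and to 52303725 and 42467383 in shRybp. Levels are given as CPM, the usual unit of counts scaled to library size, here with edgeR's TMM factors, which lay between 0.944 and 1.06. The markers of ESCs were high in every library: 8 of them summed to 5334, 5379, 4884 and 4859 RPKM (CPM per kilobase of exon) in shEV 1, shEV 2, shRybp 1 and shRybp 2. The 10 defining feeder fibroblast markers summed to 8.30, 8.47, 14.2 and 14.1 RPKM, with Lum, Dcn and Fap at no count in any library. Unless another scale is named, a bare value in brackets and the amount by which a gene rose or fell are log2 fold changes of shRybp over shEV. In bulk RNA, more or fewer cells of one type and more or less RNA per cell cannot be told apart.

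Rybp itself (chr6:100178560-100237435, mm9, minus strand) was at 85.7 and 86.4 CPM in shEV and 35.8 and 36.6 CPM in shRybp. The groups did not overlap, and the log2 fold change was -1.25 ± 0.06 SE (edgeR adjusted p = 2.0e-14), a level of 0.420 times that of shEV. Yaf2, the paralog that takes the same place in PRC1, was at 5.74 and 5.03 CPM in shEV and 7.95 and 8.09 CPM in shRybp, a rise of 0.57 (edgeR adjusted p = 0.0025). Of 24 variant PRC1 genes, 8 rose (33.3%) and 13 fell (54.2%), beside 26.9% of all genes tested that rose and 26.0% that fell. With library totals in place of TMM factors, 6 of the 24 fell. The members that rose included Pcgf1 and Pcgf5, 2 of the alternative PCGF subunits (0.60 and 0.86), the corepressor Bcor (0.45) and the transcription factor E2f6 (0.73). Those that fell included Kdm2b, the CpG island reader of the PCGF1 complex, at 197 and 192 CPM in shEV and 117 and 123 CPM in shRybp (-0.70), and Max, the partner of MGA (-0.49). Rnf2, which encodes RING1B, was at 114 and 114 CPM in shEV and 92.0 and 97.4 CPM in shRybp (-0.27, edgeR adjusted p = 1.1e-04, not called with library totals alone).

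The canonical PRC1 genes split 4 up (36.4%) and 5 down (45.5%) among 11, with a median log2 fold change of -0.12 that turned to 0.04 with library totals alone. Pcgf2 and Bmi1, alternative subunits of these complexes, moved apart: Pcgf2 was at 139 and 145 CPM in shEV and 85.4 and 88.0 CPM in shRybp, and Bmi1 was at 6.04 and 5.74 CPM in shEV and 10.3 and 10.9 CPM in shRybp. The log2 fold changes were -0.71 and 0.85, and neither gene's groups overlapped. Among 12 genes of PRC2, the complex that methylates lysine 27 of histone H3, 3 rose (25.0%) and 6 fell, the first share being near that of all genes. Its core subunits Ezh2 and Eed fell from 180.2 to 122 CPM and from 302 to 194 CPM, and Phf19, an accessory subunit, fell from 12.6 to 6.83 CPM. Phf1, which belongs to the same accessory family, rose by 0.52. Among 17 genes of the COMPASS methyltransferases, which place H3K4 methylation, 2 rose (11.8%) and 11 fell (64.7%). Setd1b, a catalytic subunit, was lowest, at 163 and 200.4 CPM in shEV and 91.6 and 90.0 CPM in shRybp, and Dpy30, a shared core subunit, fell by 0.67 on the log2 scale. The catalytic and core subunits of the Polycomb and COMPASS complexes that moved thus mostly did so by less than 2-fold, and Rybp was the only one of the 24 variant PRC1 genes past that size.

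Across the transcriptome 4450 genes rose and 4299 fell. Rises were larger than falls: 1883 genes rose by more than 2-fold, 11.4% of those tested, and 198 fell by more than 2-fold, 1.20%. The median log2 fold change of all genes tested was 0.02. Library totals alone moved that median to 0.18 and the calls to 6211 up and 2511 down, and the upper quartile moved them to 4984 up and 3636 down, so a list's median below is to be read against the median of all genes. Likewise, the percentages of a list that rose and fell, given in brackets, are to be read beside 26.9% and 26.0% of all genes tested. In a test against a change of 0.5 on the log2 scale, 1948 genes were higher and 561 lower.

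Rises and falls lay at different levels of expression. The tested genes were put in 5 classes of equal size by mean CPM. In the lowest class (0.126 to 1.25 CPM), 21.0% rose and 1.75% fell, and in the highest class (70.4 to 8984 CPM), 15.9% rose and 60.4% fell. In the lowest class 682 genes rose by more than 2-fold, but 355 and 359 without either shRybp library and 438 with DESeq2. The share that rose by more than 2-fold went from 20.6% in the lowest class and 22.6% in the next to 8.46%, 3.30% and 1.90% in the upper ones. Smaller changes can be called where counts are high, and a low gene enters the test through the group in which it is higher, so these shares are descriptions of what was called. Of 212 tested genes under 0.1 CPM in shEV, 186 rose, but 20 of them reached 1 CPM in shRybp. By chromosome, the median log2 fold change ran from -0.07 on chromosome 7 to 0.12 on chromosome 1 among chromosomes with at least 390 tested genes.

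Genes were also sorted by the state of their promoter, from peaks within 1 kb of the start site: RING1B peaks of a single shEV R1 library and H3K4me3 peaks of Rybp+/+ ESCs. Over all genes tested, 26.9% rose, 26.0% fell and 11.4% rose by more than 2-fold. Of 8797 genes with both, 2941 rose (33.4%), 2269 fell (25.8%, near the share of all genes) and 13.4% rose by more than 2-fold. Of 4992 with an H3K4me3 peak only, 858 rose (17.2%), 1731 fell (34.7%) and 4.69% rose by more than 2-fold. Of 2672 with neither peak, 625 rose (23.4%), 293 fell (11.0%) and 16.9% rose by more than 2-fold. Since these classes differ in level, they were compared within each class of level. In the lowest class 29.9% of genes with both peaks rose by more than 2-fold against 11.3% with H3K4me3 only and 17.0% with neither. In the middle class the shares were 9.81%, 3.47% and 15.6%. Genes with both peaks thus stood above those with H3K4me3 alone in each of the 5 classes, but above those with neither peak only in the lowest 2 and in the highest. A further 49 genes had a RING1B peak alone, of which 25 rose (51.0%) and 3 fell (6.12%).

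**Figure D1:**
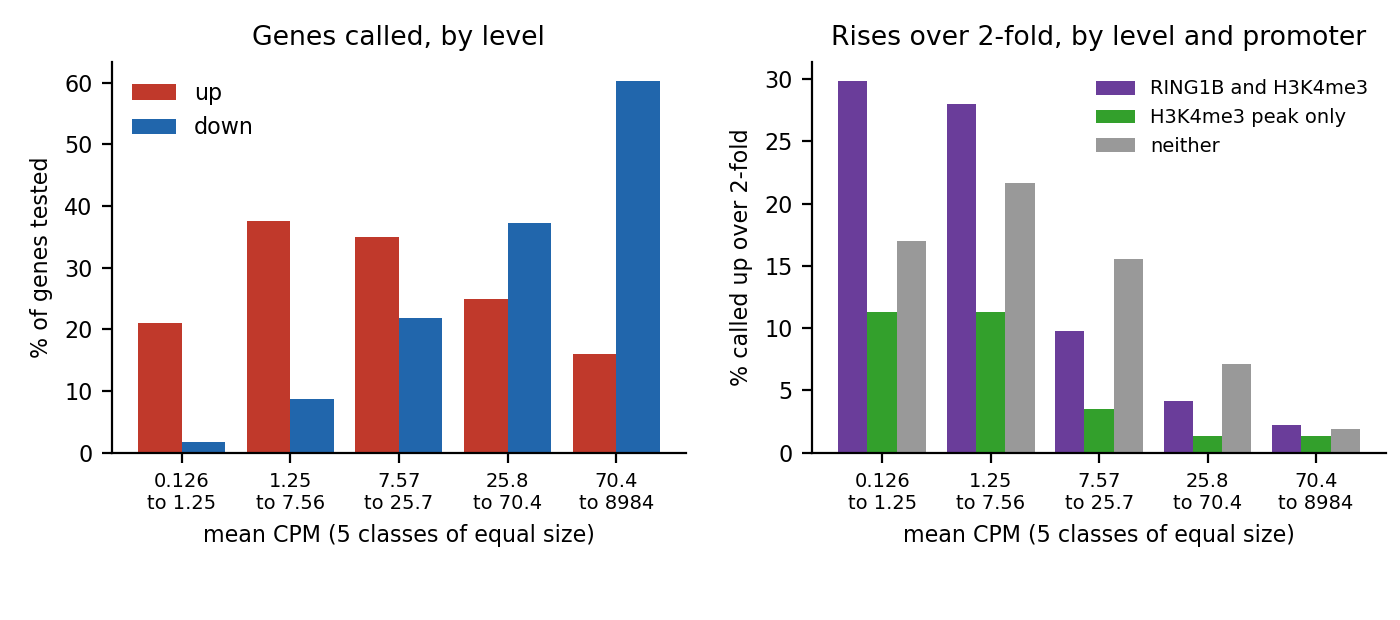
Left: the percentage of tested genes that rose (red) or fell (blue) in shRybp, by class of mean CPM over the 4 libraries. Right: the percentage that rose by more than 2-fold in the same classes, for promoters with RING1B and H3K4me3 peaks (purple), H3K4me3 only (green) or neither (grey). In the highest class 60.4% of genes fell, and in the lowest class 29.9% of genes with both peaks rose by more than 2-fold. Over all promoters that class held 682 such rises, which became 355 and 359 without either shRybp library and 438 with DESeq2.

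The 15 largest rises came from genes of several kinds. Among called genes with a mean of at least 5 CPM in the higher group, the largest rise was that of Thbs1, which encodes thrombospondin 1 (chr2:117937612-117952869), at 0.405 and 0.734 CPM in shEV and 21.4 and 22.6 CPM in shRybp (5.28 ± 0.18 SE). Next came Wnt4, a secreted Wnt ligand, at 0.278 and 0.217 CPM in shEV and 8.24 and 7.53 CPM in shRybp (4.97), and Loxl4, a lysyl oxidase that crosslinks collagen, at 0.556 and 0.326 CPM in shEV and 11.5 and 12.9 CPM in shRybp (4.77). In each of these the shEV libraries were both under 1 CPM and the shRybp libraries both above 7 CPM. Cyp1a1, an enzyme induced by the aryl hydrocarbon receptor, was at 0.405 and 0.136 CPM in shEV and 7.14 and 6.87 CPM in shRybp (4.66). The prostaglandin genes Ptgs2, which encodes the inducible cyclooxygenase, and Slco2a1, which encodes a prostaglandin transporter, rose by 4.24 and 3.63. Hdc, the enzyme that makes histamine, rose by 3.36. The surface proteins Msln and Ly6a, the phosphatase genes Alppl2 and Ptprt, the anion transporter Slc26a9 and the calcium-binding protein S100a6 rose by between 3.31 and 3.48. S100a6 was at 5.23 and 4.73 CPM in shEV and 54.4 and 53.6 CPM in shRybp.

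The largest falls were smaller in size and came from genes of many kinds, and the lowest, Ankrd34a, is given with its neighbours below. Atcay, a gene best known from cerebellar ataxia, was at 11.7 and 9.73 CPM in shEV and 2.72 and 2.12 CPM in shRybp (-2.14 ± 0.17 SE). Actn3, an alpha-actinin of fast muscle, was at 45.3 and 46.3 CPM in shEV and 11.5 and 13.3 CPM in shRybp (-1.89), and Gbx2, a homeobox factor of the LIF response, was at 88.9 and 99.2 CPM in shEV and 27.5 and 27.8 CPM in shRybp (-1.77). Cdk2ap1, an inhibitor of CDK2 that is also a subunit of the NuRD complex, Ctdsp2, a small phosphatase, and E2f2, a cell-cycle transcription factor, fell by 1.71, 1.50 and 1.47 on the log2 scale. Mapk3, which encodes the kinase ERK1, was at 71.3 and 77.9 CPM in shEV and 26.8 and 26.5 CPM in shRybp (-1.48). Lin28a, an RNA-binding protein that blocks the maturation of let-7 microRNAs, was at 312 and 312 CPM in shEV and 114 and 109.6 CPM in shRybp (-1.48). Rpl10, a protein of the large ribosomal subunit, was at 948 and 918 CPM in shEV and 254 and 235 CPM in shRybp (-1.93), but processed copies of it lie elsewhere in the genome, and how reads are divided among them makes this value uncertain.

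Of the 15 genes that fell most, 3 are neighbours, which was seen only once their values were known. Polr3gl, which encodes a subunit of RNA polymerase III, Ankrd34a and Lix1l lie side by side on chr3:96381795-96429275 (mm9), with start sites within 6952 bases of each other. Polr3gl was at 13.2 and 12.0 CPM in shEV and 3.86 and 4.48 CPM in shRybp, Ankrd34a at 5.44 and 5.98 CPM in shEV and 1.01 and 0.736 CPM in shRybp and Lix1l at 11.2 and 12.4 CPM in shEV and 4.17 and 3.68 CPM in shRybp, and their log2 fold changes were -1.60, -2.69 and -1.58. On one side Txnip, which encodes a thioredoxin-binding protein, rose from 158 to 478 CPM (1.59). On the other side Rbm8a, which encodes a core protein of the exon junction complex, fell by 0.32 on the log2 scale. Polr3gl overlaps Gm16253 on the other strand, and Lix1l overlaps an antisense RNA. Without strand, the reads of such overlapping genes cannot be told apart.

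**Figure D2:**
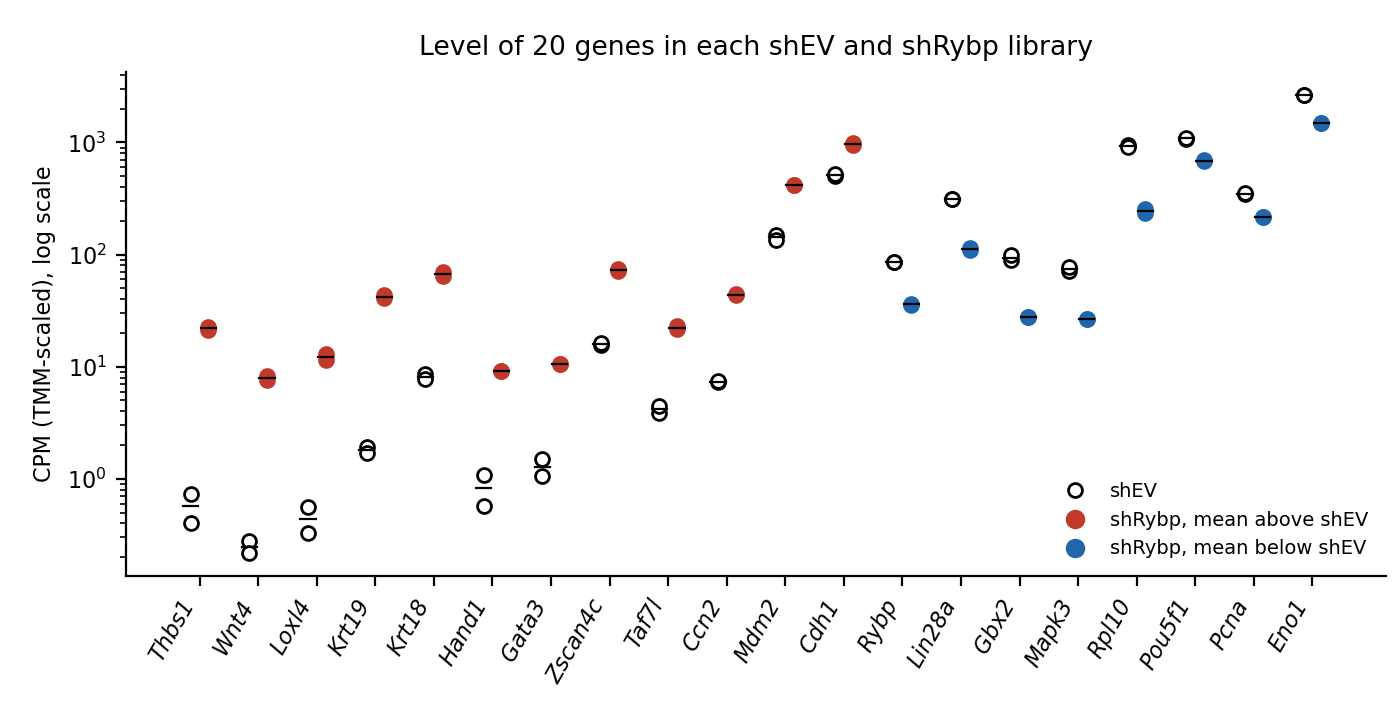
TMM-scaled CPM on a log axis for 20 named genes in each library: open circles are the shEV libraries, filled circles the shRybp libraries (red where their mean is above that of shEV, blue where it is below), and short lines the group means. The groups are apart in every gene shown, from Thbs1 (0.405 and 0.734 CPM against 21.4 and 22.6 CPM) to Eno1. For genes taken from the largest rises and falls, groups that do not overlap were a condition of being named. In some low genes the 2 shEV libraries differ from each other, as in Hand1 (1.09 and 0.571 CPM).

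Pluripotency genes did not move as one. Of 24 core and naive genes, 6 rose (25.0%) and 11 fell (45.8%), beside 26.9% and 26.0% of all genes tested, with a median of -0.13 that turned to 0.03 with library totals alone. Pou5f1, which encodes OCT4, was at 1077 and 1099 CPM in shEV and 679 and 699 CPM in shRybp (-0.66 ± 0.04 SE, edgeR adjusted p = 1.6e-12). Nanog was at 554 and 561 CPM in shEV and 649 and 651 CPM in shRybp, a rise of 0.22, and Klf4 rose by 0.18 (0.089 and not called without shEV 1, and 0.17 and not called without shRybp 2). Sox2 was at 1144 and 1259 CPM in shEV and 1158 and 1128 CPM in shRybp, and its log2 fold change of -0.07 did not pass the test (edgeR adjusted p = 0.18). Esrrb, Zfp42 and Utf1, further pluripotency genes, fell by 0.42, 0.38 and 0.83 on the log2 scale. Dppa3, an oocyte and germ cell factor that marks the most naive cells, was low throughout, at 0.506 and 1.11 CPM in shEV and 3.41 and 3.41 CPM in shRybp (2.08). The naive list as a whole thus held both its largest fall, Gbx2, and a rise in Nanog.

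Genes of the formative and primed states were mostly lower. Of 14 tested, 2 rose (14.3%) and 9 fell (64.3%). Foxd3 and Tcf15, factors of the exit from the naive state, were at 299 and 356 CPM in shEV and 179.6 and 163 CPM in shRybp and at 191 and 194 CPM in shEV and 98.9 and 93.4 CPM in shRybp, and both fell. Fgf15 fell by 1.08 and Dnmt3b, a de novo DNA methyltransferase, by 0.40 on the log2 scale. Otx2 was at 37.2 and 37.0 CPM in shEV and 34.7 and 31.4 CPM in shRybp and did not pass the test (edgeR adjusted p = 0.068), and Fgf5, the usual marker of the primed state, stayed under 1 CPM in every library. The 2 that rose were Lef1 (0.67) and Cdh2, which encodes N-cadherin (1.26).

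The 2-cell-like genes, which rare ESCs express together in a state that resembles the embryo at the first cleavage, rose where they could be tested. Of 16 in the table, 13 rose, beside 26.9% of all genes tested, and the other 3 had too few counts to be tested. Members low in shEV enter the test through shRybp, so for them a rise was likely once they were tested. With only genes at a mean of at least 5 CPM kept, 8 rose. Zscan4c, a zinc finger gene of a multicopy family, was at 15.7 and 16.3 CPM in shEV and 74.4 and 71.5 CPM in shRybp (2.19 ± 0.07 SE). Usp17la, a deubiquitinase gene of another such family, was at 2.48 and 3.32 CPM in shEV and 21.4 and 20.2 CPM in shRybp (2.85). Tdpoz4 and Zfp352 rose from 0.145 to 1.70 CPM and from 0.457 to 1.61 CPM. Dux, the factor that opens this programme, was at 0.303 and 0.272 CPM in shEV and 0.688 and 0.869 CPM in shRybp, under 1 CPM in every library, and its rise (1.42, edgeR adjusted p = 0.038) was lost with DESeq2 and without any 1 of the 4 libraries (1.25 to 1.58). Members of these families share near-identical sequence, so a value for 1 member may hold reads of others.

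Germline and meiosis genes rose in part. Of 46 tested, 25 rose (54.3%) and 4 fell (8.70%), and 17 did not pass the test. Taf7l, a TFIID subunit of male germ cells, was at 3.89 and 4.46 CPM in shEV and 22.9 and 21.7 CPM in shRybp (2.42 ± 0.12 SE). Dazl, an RNA-binding protein of germ cells, was at 9.56 and 11.2 CPM in shEV and 36.1 and 34.8 CPM in shRybp (1.78). Ddx4, the VASA helicase, was at 29.5 and 26.4 CPM in shEV and 47.1 and 47.7 CPM in shRybp (0.76). Mael and Tdrd9, which act in the piRNA pathway, rose by 0.98 and 1.63, and the mitochondrial carrier Slc25a31 and the meiotic axis protein Hormad1 rose by 1.41 and 0.91. The list also held falls: Sycp3, of the synaptonemal complex, was at 8.27 and 7.04 CPM in shEV and 4.28 and 3.66 CPM in shRybp (-0.95). Germline genes thus rose side by side with a meiotic gene that fell.

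The promoters of 3 of the genes that rose are shown because they hold both motifs searched for the PCGF6 complex. These are the E-box CACGTG, bound by MAX with MGA, and GGCGGGAA, bound by E2F6. Syce2, which did not pass the test (-0.18), is the 4th germline gene with both. Letters are RefSeq sequence of GRCm38.p6, 250 bases before to 50 after the start, read 5′ to 3′ along the gene, with either motif in capitals on either strand (the reverse complement of GGCGGGAA is TTCCCGCC). They lie at chr13:112652261-112652560 (minus strand) for Ddx4, chr3:40708621-40708920 (plus strand) for Slc25a31 and chr3:95559427-95559726 (plus strand) for Hormad1.
Ddx4: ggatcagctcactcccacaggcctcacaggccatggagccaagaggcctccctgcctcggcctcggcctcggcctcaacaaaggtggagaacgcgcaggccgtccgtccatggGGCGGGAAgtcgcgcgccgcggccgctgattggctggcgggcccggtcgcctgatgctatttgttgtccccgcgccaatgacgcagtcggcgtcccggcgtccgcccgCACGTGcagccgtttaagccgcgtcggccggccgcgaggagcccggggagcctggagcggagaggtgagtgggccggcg
Slc25a31: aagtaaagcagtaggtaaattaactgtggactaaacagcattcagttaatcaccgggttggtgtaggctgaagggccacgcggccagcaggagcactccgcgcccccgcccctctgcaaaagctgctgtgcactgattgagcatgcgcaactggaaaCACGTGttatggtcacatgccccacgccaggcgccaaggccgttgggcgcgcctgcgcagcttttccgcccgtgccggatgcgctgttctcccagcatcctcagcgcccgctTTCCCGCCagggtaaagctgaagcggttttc
Hormad1: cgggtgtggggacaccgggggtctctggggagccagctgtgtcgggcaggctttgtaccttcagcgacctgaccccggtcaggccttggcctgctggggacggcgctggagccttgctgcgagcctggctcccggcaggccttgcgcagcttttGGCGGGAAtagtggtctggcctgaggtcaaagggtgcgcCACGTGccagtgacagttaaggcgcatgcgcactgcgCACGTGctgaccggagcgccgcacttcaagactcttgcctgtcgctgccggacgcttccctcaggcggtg

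A gene was counted if any of its promoters of that length held the motif. CACGTG was found for 15 of 44 germline genes (34.1%) and for 2187 of all 27025 genes with such a promoter (8.09%). GGCGGGAA was found for 7 of the 44 (15.9%) and for 681 of all (2.52%). Of the 15 genes with CACGTG 11 rose and 2 fell, and of the 29 without it 12 rose and 2 fell. Of the 7 genes with GGCGGGAA 3 rose and 4 did not pass the test, and of the 37 without it 20 rose and 4 fell. A match is a string of letters and was not tested for binding. The promoter of Sycp3, which fell, also held the E-box, as did that of Taf7l, which rose.

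Most of the trophectoderm genes tested, which mark the outer lineage of the blastocyst, rose. Of 20, 17 rose (85.0%) and 1 fell (5.00%), and 15 rose by more than 2-fold. Gata3 was at 1.49 and 1.06 CPM in shEV and 10.5 and 10.7 CPM in shRybp (3.04 ± 0.19 SE), Hand1 at 1.09 and 0.571 CPM in shEV and 9.10 and 9.16 CPM in shRybp (3.44) and Cdx2 at 0.784 and 1.17 CPM in shEV and 2.46 and 2.70 CPM in shRybp (1.40). Gata3 and Cdx2 are regulators of trophoblast fate, and Hand1 of its giant cells. Krt8 and Krt18, the keratin pair of simple epithelia, were at 30.5 and 34.6 CPM in shEV and 111 and 124 CPM in shRybp and at 8.55 and 7.80 CPM in shEV and 64.7 and 69.3 CPM in shRybp (1.85 and 3.03). Other members stayed low or fell: Elf5, a factor of the trophoblast stem cell, was at 0.126 and 0.272 CPM in shEV and 0.127 and 0.312 CPM in shRybp and did not pass the test, and Eomes fell from 14.9 to 9.78 CPM. The 5 defining markers summed to 1.47 and 1.27 RPKM in shEV and to 9.21 and 9.35 RPKM in shRybp, against 4859 to 5379 RPKM for the ESC markers over the 4 libraries.

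Other epithelial genes rose as well. Of 20 keratins tested, 3 of them (Krt7, Krt8 and Krt18) counted above, 14 rose (70.0%) and 1 fell (5.00%), with a median of 1.60. Krt19 was at 1.92 and 1.71 CPM in shEV and 41.1 and 43.3 CPM in shRybp (4.53 ± 0.12 SE). Of 13 claudins, which seal tight junctions, 8 rose (61.5%) and 0 fell, with Cldn6 at 16.0 and 15.4 CPM in shEV and 53.3 and 56.5 CPM in shRybp (1.80). Cdh1, which encodes E-cadherin, was at 504 and 519.9 CPM in shEV and 947 and 984 CPM in shRybp (0.91), and Epcam rose by 0.40. Vim, which encodes the intermediate filament of mesenchyme, fell by 0.79 on the log2 scale, while Cdh2 rose.

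Genes of primitive endoderm, the other extraembryonic lineage of the blastocyst, mostly rose. Of 23 tested, 15 rose (65.2%) and 3 fell (13.0%). Its regulators were low, with Gata4 at 1.47 and 2.61 CPM in shEV and 5.09 and 5.55 CPM in shRybp (1.39) and Sox17 at 1.37 and 2.42 CPM in shEV and 5.06 and 5.19 CPM in shRybp (1.44), and the 2 shEV libraries differed in both. Its basement membrane genes also rose, with Col4a1 at 37.0 and 39.4 CPM in shEV and 138 and 147 CPM in shRybp (1.90) and Sparc at 154 and 141 CPM in shEV and 413 and 429.8 CPM in shRybp (1.51). Sox7 and Hnf4a fell by 0.58 and 0.69 on the log2 scale, but neither was called without shRybp 2 (-0.39 and -0.43). Summed over 7 defining markers, the level was 6.11 and 8.88 RPKM in shEV and 9.33 and 9.26 RPKM in shRybp.

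Of 23 primitive streak and mesoderm genes tested, 10 rose (43.5%) and 2 fell (8.70%), but the defining markers were low. The 5 of them summed to 1.52 and 1.95 RPKM in shEV and to 2.25 and 2.06 RPKM in shRybp. T, which encodes brachyury, was at 0.531 and 0.408 CPM in shEV and 1.36 and 0.736 CPM in shRybp, and its call was lost with DESeq2, with the replicate block and without shEV 2 (0.98) or shRybp 1 (0.64). Wnt3a, a ligand of the streak, was at 0.0506 and 0.109 CPM in shEV and 1.07 and 1.45 CPM in shRybp. Of 20 neural genes, 7 rose and 4 fell, shares of 35.0% and 20.0% beside 26.9% and 26.0% of all genes tested. Nes, which encodes nestin, rose from 14.8 to 43.3 CPM, and Pax6 and Tubb3 fell from 5.81 to 3.03 CPM and from 293 to 183 CPM.

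Of the 10 defining feeder fibroblast markers, 5 were tested, 4 rose and 0 fell, and of a wider list of 20 that holds them 11 were tested, 9 rose (81.8%, 4 of them by more than 2-fold) and 0 fell. The wider list summed to 95.5 and 103.9 CPM in shEV and to 201 and 213.9 CPM in shRybp, and 3 of its members had no count in any library. Among those that rose was Col1a1 at 6.09 and 6.58 CPM in shEV and 9.48 and 9.76 CPM in shRybp (0.60). Col3a1 and Postn had at most 4 counts in any library. These markers moved in the same direction as the matrix genes described next, where 4 of the 9 are counted again as collagens, and their part in that result was not tested.

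Extracellular matrix genes mostly rose. Of 34 collagen genes tested, 24 rose (70.6%) and 0 fell, with a median of 1.18. The basement membrane collagen Col4a2 was at 14.0 and 16.5 CPM in shEV and 68.5 and 86.0 CPM in shRybp (2.34 ± 0.12 SE), and the fibrillar collagen Col5a1 was at 27.8 and 29.6 CPM in shEV and 91.0 and 97.2 CPM in shRybp (1.71). Col6a1 rose from under 0.1 CPM in both shEV libraries to 1.61 and 1.20 CPM. Of 11 laminins, 7 rose (63.6%) and 1 fell (9.09%): Lamb3, a chain of epithelial laminin, was at 3.26 and 2.39 CPM in shEV and 19.6 and 19.8 CPM in shRybp (2.80), and Lamc1, a chain of most laminins, fell by 0.27 on the log2 scale. Of 27 tested matricellular and protease genes, 21 rose (77.8%) and 1 fell (3.70%). Of the 5 lysyl oxidases, 4 rose and 0 fell, Loxl3 by 1.58. Integrins, the matrix receptors, were more mixed: of 21 tested, 10 rose (47.6%) and 4 fell (19.0%). Itga8 rose from 1.77 to 9.28 CPM, and Itgb1, the common beta chain, rose by 0.28. Annexins and S100 genes gave 9 rises and 1 fall among 18, with Anxa2 at 11.4 and 12.3 CPM in shEV and 38.8 and 40.3 CPM in shRybp and Anxa11 down by 0.83 on the log2 scale. Fn1, which encodes fibronectin, was at 1195 and 1258 CPM in shEV and 1125 and 1179.6 CPM in shRybp and did not pass the test.

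Targets of YAP, the co-activator that works through TEAD factors when Hippo signalling is low, rose in most cases. Of 20 tested, 15 rose (75.0%) and 0 fell. Ccn2 and Ccn1, the best known of them, were at 7.26 and 7.39 CPM in shEV and 44.4 and 43.6 CPM in shRybp (2.59 ± 0.09 SE) and at 16.7 and 15.0 CPM in shEV and 91.3 and 95.8 CPM in shRybp (2.56 ± 0.07 SE). Amotl2, which restrains YAP in turn, was at 78.2 and 87.9 CPM in shEV and 222 and 243 CPM in shRybp (1.49). Thbs1 is on this list as well. Of 23 tested genes of SRF and the actin cytoskeleton, a related programme, 10 rose and 6 fell (43.5% and 26.1%, the latter near the 26.0% of all genes tested). There Tagln, of smooth muscle, was at 2.86 and 2.96 CPM in shEV and 18.4 and 19.9 CPM in shRybp (2.72), Srf itself fell by 0.49 on the log2 scale, and Vcl, which encodes vinculin, did not pass the test (-0.13).

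The promoters of Ccn1 and Amotl2 are printed because both genes rose and both hold the TEAD motif GGAATG or its reverse complement CATTCC, in capitals. They come from the same RefSeq table (GRCm38.p6), at chr3:145649936-145650235 (minus strand) for Ccn1 and chr9:102717554-102717853 (plus strand) for Amotl2.
Ccn1: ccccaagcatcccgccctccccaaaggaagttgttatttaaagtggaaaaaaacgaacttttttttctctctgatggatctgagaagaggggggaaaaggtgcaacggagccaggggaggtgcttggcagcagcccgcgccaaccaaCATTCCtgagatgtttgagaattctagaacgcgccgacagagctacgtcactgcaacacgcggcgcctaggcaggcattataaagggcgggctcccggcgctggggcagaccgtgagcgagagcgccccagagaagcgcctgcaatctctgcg
Amotl2: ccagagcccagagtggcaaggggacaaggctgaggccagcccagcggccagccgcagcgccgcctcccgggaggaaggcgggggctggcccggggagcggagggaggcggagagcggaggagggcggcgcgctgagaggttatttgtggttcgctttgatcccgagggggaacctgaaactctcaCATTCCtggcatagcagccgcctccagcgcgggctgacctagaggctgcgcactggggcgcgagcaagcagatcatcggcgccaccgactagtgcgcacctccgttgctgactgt

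The motif was in a promoter of 8 of the 15 YAP target genes found in that table (53.3%) and of 4481 of all 27025 genes (16.6%). Of those 8, 6 genes rose, Ajuba did not pass the test and Ankrd1 was not tested, and of the 7 without it 3 rose, Tgfb2 among them. As a short string it is common, and no occupancy was measured here.

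Signalling genes were taken pathway by pathway. In the TGF-beta and Nodal list, 14 rose (58.3%) and 5 fell (20.8%) among 24 tested. Nodal, a ligand, was at 107 and 104 CPM in shEV and 180.2 and 194 CPM in shRybp (0.83), and its inhibitors Lefty1 and Lefty2, which Nodal signalling induces, were at 67.1 and 60.2 CPM in shEV and 174 and 176 CPM in shRybp and at 66.6 and 67.1 CPM in shEV and 206 and 192 CPM in shRybp (1.46 and 1.58). Tgfb2 rose from 0.467 to 2.47 CPM, and Inhbb, a subunit of activin, was at 383 and 505 CPM in shEV and 208 and 194 CPM in shRybp (-1.14, lost with the replicate block, without a filter and without either shRybp library, at -1.20 and -1.10). Smad4, the common mediator, fell by 0.45 on the log2 scale. In the BMP list, 15 rose (78.9%) and 1 fell (5.26%) among 19. The BMP targets Id1, Id2 and Id3, inhibitors of differentiation, rose by 0.94, 1.64 and 0.54, while the ligand gene Bmp4 was at 29.1 and 29.0 CPM in shEV and 20.9 and 20.5 CPM in shRybp (-0.49).

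In the FGF and ERK list, 12 rose (42.9%) and 10 fell (35.7%) among 28. The feedback inhibitor Spry4 and the immediate early genes Egr1 and Myc fell by 0.88, 0.75 and 0.79 on the log2 scale, as did Mapk3 above. Jun, an AP-1 subunit, was at 8.39 and 10.0 CPM in shEV and 49.9 and 52.9 CPM in shRybp (2.48), and Phlda1 rose by 2.15. Immediate early genes thus moved in both directions. In the Wnt list, 13 rose (46.4%) and 6 fell (21.4%) among 28. Among the members that rose were the ligand gene Wnt7b and the inhibitor gene Dkk1: Wnt7b was at 2.07 and 2.04 CPM in shEV and 17.1 and 21.9 CPM in shRybp (3.24) and Dkk1 rose from 0.367 to 2.61 CPM. The receptor gene Fzd5 and the secreted inhibitor Sfrp1 fell by 0.59 and 0.60 on the log2 scale. Axin2, the usual readout of the canonical pathway, was at 23.0 and 24.9 CPM in shEV and 25.9 and 25.0 CPM in shRybp and did not pass the test, although library totals alone gave a rise of 0.25 that did. In the LIF and STAT3 list, 5 rose and 6 fell among 18, shares (27.8% and 33.3%) near those of all genes tested (26.9% and 26.0%). Lif, the ligand, rose from 4.92 to 14.0 CPM, Stat3 rose by 0.16 (0.14 and not called without shRybp 2) and Bcl3 fell by 1.11 on the log2 scale. Guidance genes mostly rose, with 13 up (68.4%) and 2 down among 19 ephrins and Eph receptors and 18 up (62.1%) and 4 down among 29 semaphorins and plexins. Sema6a rose by 2.35, and Sema6c fell by 1.46 on the log2 scale.

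Most of the p53 targets tested rose. Of 28, 21 rose (75.0%) and 2 fell (7.14%), beside 26.9% and 26.0% of all genes tested, with a median of 0.74. Mdm2, the ligase that degrades p53 and is induced by it, was at 150.2 and 136 CPM in shEV and 414 and 416 CPM in shRybp (1.53 ± 0.05 SE, edgeR adjusted p = 3.0e-17). Cdkn1a, which encodes p21, rose from 55.5 to 116 CPM (1.07), Perp was at 23.8 and 25.6 CPM in shEV and 133 and 135 CPM in shRybp (2.44) and the death receptor gene Fas at 0.228 and 0.190 CPM in shEV and 2.65 and 2.59 CPM in shRybp (3.62). Sesn1 fell by 0.48 on the log2 scale. The mRNA of p53 itself, Trp53, was at 541 and 561 CPM in shEV and 533 and 533 CPM in shRybp, and its log2 fold change of -0.05 did not pass the test and turned to 0.11 with library totals alone. Of 7 CDK inhibitors, 4 rose (57.1%) and 1 fell (14.3%): Cdkn1c and Cdkn2b rose by 1.19 and 1.89, and Cdkn1b, which encodes p27, fell by 0.56 on the log2 scale.

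Most genes of DNA replication and mitosis fell. In the highest of the 5 level classes 60.4% of all genes tested did so, with a median log2 fold change of -0.20. Of 32 DNA replication genes, 0 rose and 31 fell (96.9%), with a median of -0.52. Pcna, the polymerase clamp, was at 346 and 351 CPM in shEV and 217 and 216 CPM in shRybp (-0.68 ± 0.04 SE), and Mcm2, of the replicative helicase, was at 854 and 876 CPM in shEV and 568 and 558 CPM in shRybp (-0.62). Ccne1, the cyclin of entry into S phase, was at 223 and 206 CPM in shEV and 95.4 and 90.4 CPM in shRybp (-1.21). Of 28 mitosis genes, 0 rose and 24 fell (85.7%), with Ccnb1 and Plk1 down by 0.51 and 0.56 on the log2 scale. Of 46 replication-dependent histone genes tested, 10 rose (21.7%, beside 26.9% of all genes tested) and 0 fell. Their mRNAs carry no poly(A) tail in growing cells.

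Many genes of growth and biosynthesis fell by small amounts, as did highly expressed genes at large (60.4% of the highest level class, above). Of 30 genes of the nucleolus and rRNA synthesis, 2 rose (6.67%) and 26 fell (86.7%). Ncl, which encodes nucleolin, was at 4181 and 3846 CPM in shEV and 2964 and 2883 CPM in shRybp (-0.46), and Polr1a and Utp20 rose by 0.21 and 0.41. Of 78 cytosolic ribosomal protein genes, 3 rose (3.85%) and 58 fell (74.4%), with a median of -0.20, but 22 fell with library totals alone. Mitochondrial ribosomal proteins gave 49 falls (66.2%) among 74 tested (27 with library totals alone), and nuclear genes of the respiratory chain gave 51 (60.7%) among 84 (30 with library totals alone). Of 12 tested respiratory genes of the mitochondrial genome, 0 rose and 3 fell (25.0%, beside 26.0% of all genes tested), and their median of -0.06 turned to 0.09 with library totals alone. In the MYC network, 2 rose (15.4%) and 7 fell (53.8%) among 13: Myc was at 71.9 and 78.2 CPM in shEV and 43.4 and 43.4 CPM in shRybp, while its relative Mycn was at 551 and 592 CPM in shEV and 552 and 533 CPM in shRybp and did not pass the test. The MYC antagonist Mxd4 rose by 0.86.

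Of 20 glycolysis genes, 2 rose (10.0%) and 16 fell (80.0%). The enzymes Eno1, Tpi1 and Ldha fell, Eno1 being at 2648 and 2655 CPM in shEV and 1488 and 1500.1 CPM in shRybp (-0.83), and the 2 that rose were the glucose transporters Slc2a1 and Slc2a3 (0.20 and 0.50). In the cholesterol synthesis list, 0 rose and 17 fell (73.9%) among 23. Msmo1, a sterol oxidase, was at 63.9 and 59.6 CPM in shEV and 27.4 and 26.6 CPM in shRybp (-1.19). Of 20 genes of serine synthesis and the amino acid response, 6 rose (30.0%) and 11 fell (55.0%), the first share being near the 26.9% of all genes. Psat1, of serine synthesis, was at 378 and 374 CPM in shEV and 186 and 185 CPM in shRybp (-1.02), and Chac1, an ATF4 target, fell from 16.8 to 5.39 CPM. Atf4 rose by 0.16, and Ddit4, an inhibitor of mTORC1, was at 80.4 and 77.8 CPM in shEV and 276 and 280.3 CPM in shRybp (1.81). Of 19 heat shock genes, 2 rose (10.5%) and 16 fell (84.2%), with Hspa8 down from 2581 to 1538 CPM and Hspa1a, the inducible form, up from 4.46 to 13.3 CPM. Of 20 ER chaperones, 7 rose and 7 fell (35.0% each, beside 26.9% and 26.0% of all genes tested). Among 345 solute carriers 264 were tested, of which 96 rose (36.4%) and 52 fell (19.7%), the amino acid transporter Slc1a5 by 1.15 on the log2 scale.

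**Figure D3:**
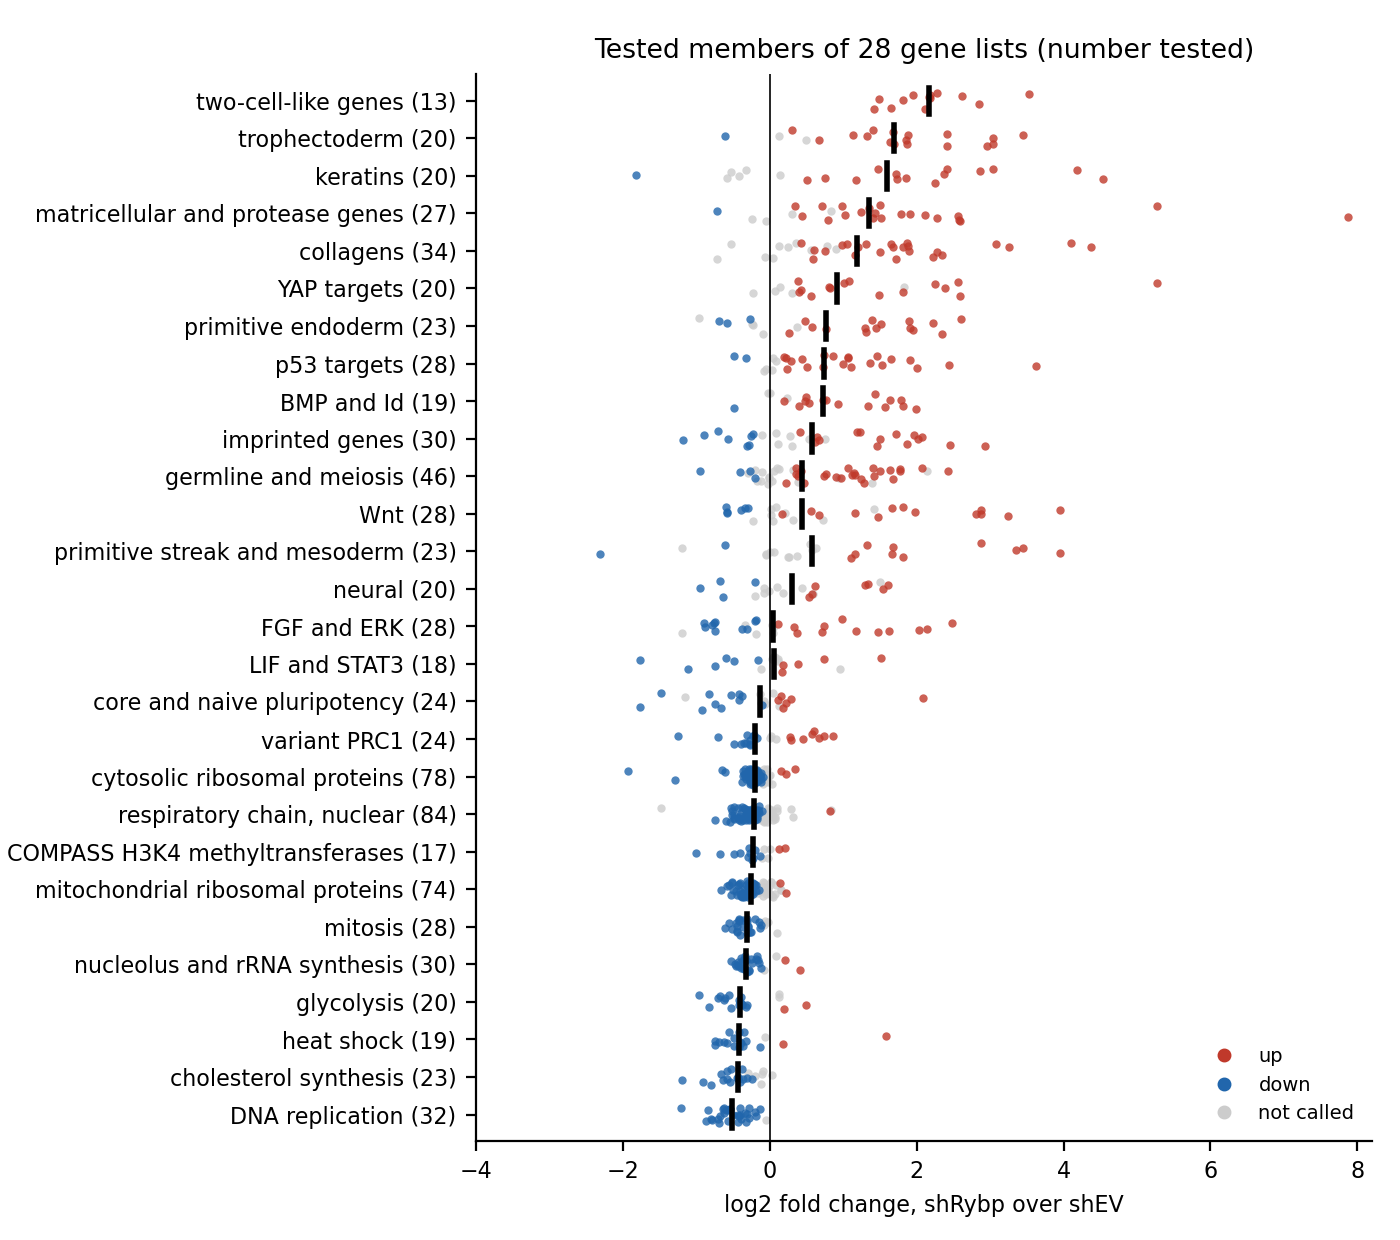
Log2 fold change, shRybp over shEV, of the tested members of 28 gene lists (number tested in brackets): each point is a gene (red rose, blue fell, grey not called) and each thick bar the median of its list. Medians run from 2.17 in the 2-cell-like genes to -0.52 in DNA replication, and that of core and naive pluripotency turns from -0.13 to 0.03 with library totals alone.

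Of 21 interferon response genes tested, among 33 in the table, 9 rose and 6 fell (42.9% and 28.6%, beside 26.9% and 26.0% of all genes tested). Gbp2, an interferon-induced GTPase, had 3 counts over both shEV libraries and stood at 1.43 and 1.34 CPM in shRybp. B2m, the light chain of MHC class I, was at 7.10 and 7.58 CPM in shEV and 16.4 and 16.9 CPM in shRybp (1.18), while Irf9 and Ifitm2 fell by 0.73 and 0.81 on the log2 scale. Of 29 lysosomal genes, 9 rose and 7 fell (31.0% and 24.1%), near the same shares over all genes: the protease Ctsd rose by 0.64, and Tfeb, a regulator of lysosomal genes, fell by 0.91 on the log2 scale.

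Of 17 DNA methylation genes, 2 rose (11.8%) and 10 fell (58.8%). Uhrf1, which brings DNMT1 to replicating DNA, was at 551 and 546 CPM in shEV and 321 and 335 CPM in shRybp (-0.74), Tet1, a 5-methylcytosine oxidase, was at 551 and 558 CPM in shEV and 328 and 338 CPM in shRybp (-0.74), and Trim28, the corepressor that holds imprints and retroviruses silent, was at 4485 and 4589.5 CPM in shEV and 2486 and 2491 CPM in shRybp (-0.87). The rises were those of Dnmt3l and Tet3 (0.22 and 0.50). Of 30 tested imprinted genes, 15 rose and 8 fell, a share of falls (26.7%) near the 26.0% of all genes tested. Igf2, a fetal growth factor, was at 4.37 and 4.78 CPM in shEV and 36.6 and 33.4 CPM in shRybp (2.94 ± 0.11 SE) and its neighbour H19 at 0.354 and 0.680 CPM in shEV and 2.19 and 2.14 CPM in shRybp (2.07). These genes are expressed from opposite parental alleles, and both rose. Dlk1 was at 7.03 and 6.39 CPM in shEV and 34.5 and 39.0 CPM in shRybp (2.45). The growth-restraining genes Grb10 and Phlda2 fell by 0.89 and 1.19 on the log2 scale, and Cdkn1c, another of that kind, rose as given above.

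Classes of developmental factors that Polycomb is known to cover were low in most cases. Of 39 Hox genes 21 passed the filter, 6 rose and 0 fell, and the 28.6% that rose is near the 26.9% of all genes tested. Hoxa3 and Hoxb13, the highest that rose, reached 1.05 to 1.34 and 0.997 to 1.16 CPM, but both calls were lost without either shRybp library (1.42 and 1.07 for Hoxa3, 1.65 and 1.43 for Hoxb13), and that of Hoxa3 with DESeq2. Of 91 homeobox factors outside those clusters 66 were tested, 25 rose (37.9%) and 11 fell (16.7%). Dlx3, a factor of trophoblast and skin, rose from 0.507 to 3.97 CPM, and Vax2, of the eye, fell from 4.54 to 1.33 CPM. Of 81 factors of the Tbx, Fox, Sox and Gata families 65 were tested, 32 rose (49.2%) and 10 fell (15.4%). Foxa2 rose from 0.513 to 2.40 CPM. Of 348 tested Zfp genes 46 rose (13.2%) and 114 fell (32.8%), with a median of -0.14 that turned to 0.02 with library totals alone. Of 1096 olfactory receptor genes, which ESCs do not use, 4 were tested and 3 rose, so nearly all stayed under the filter in both groups.

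The knockdown was then set beside the Rybp-/- cells in a single fit of all 8 libraries over 18203 genes. No control library is shared, but the line, the way RYBP was removed and the count table go with the groups and cannot be told apart. In that fit 19.4% of genes rose and 18.5% fell in the knockout, and the 2 effects differed for many genes: the knockdown effect was higher than the knockout effect for 18.3% and lower for 22.2%. Rybp mRNA was at 116 and 116 CPM in Rybp+/+ and 26.0 and 26.2 CPM in Rybp-/-, with a knockout log2 fold change of -2.15 ± 0.05 SE against -1.28 ± 0.05 SE in the knockdown. The mRNA was thus lowered more in the knockout, but was not absent from Rybp-/-.

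In the trophectoderm, YAP and p53 lists most differences were higher in the knockdown. The median of the trophectoderm list was 1.66 in the knockdown and 0.62 in the knockout, with 13 differences called higher and 2 lower. For the YAP targets the medians were 1.01 and 0.43 (12 higher, 0 lower), and for the p53 targets 0.71 and 0.13 (18 higher, 2 lower). Krt18 moved by 3.01 ± 0.09 SE in the knockdown and by 0.24 ± 0.07 SE in the knockout, and the difference of 2.77 passed the test (edgeR adjusted p = 2.5e-16). Baselines differed between lines. Thbs1 stood at 96.7 and 99.8 CPM in Rybp+/+ and 165 and 165 CPM in Rybp-/-, far above the shEV level, and rose there by 0.75 ± 0.05 SE against 5.25 ± 0.13 SE in the knockdown.

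Replication genes fell less in the knockout, with medians of -0.54 and -0.13 (1 difference higher, 25 lower). Pou5f1 and Rpl10 were near their control levels in Rybp-/- (0.03 ± 0.03 SE and 0.05 ± 0.04 SE) and fell in the knockdown (-0.69 ± 0.03 SE and -1.96 ± 0.04 SE), and both differences passed the test. Gbx2, which fell in the knockdown, was already low in the other line, at 4.16 and 4.21 CPM in Rybp+/+ and 4.24 and 4.39 CPM in Rybp-/-.

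The order was the reverse for the 2-cell-like genes. In this list 13 differences were tested and all 13 were called lower in the knockdown. Several of these genes had a handful of counts in Rybp+/+, where the size of a fitted fold change depends on the prior count, so no median is given. Zscan4c was at 0.107 and 0.0392 CPM in Rybp+/+ and 21.6 and 21.7 CPM in Rybp-/-, so that the control level of the R7.15 line was far below the 15.7 and 16.3 CPM of shEV. Germline genes were split, with 12 differences higher and 20 lower and medians of 0.43 and 1.23. Ddx4 rose by 0.73 ± 0.07 SE in the knockdown and by 1.54 ± 0.06 SE in the knockout. For Dazl the 2 values were 1.75 ± 0.09 SE and 1.56 ± 0.08 SE, for Taf7l 2.39 ± 0.13 SE and 2.56 ± 0.14 SE, and for Ankrd34a -2.72 ± 0.26 SE and -2.07 ± 0.26 SE. None of these last 3 differences passed the test, which does not show that the effects are equal. Ddit4 moved in opposite directions, by 1.79 ± 0.04 SE and -0.98 ± 0.04 SE, and Otx2, which did not pass the test in the fit of 4 libraries, had a log2 fold change of -1.80 ± 0.07 SE in the knockout.

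**Figure D4:**
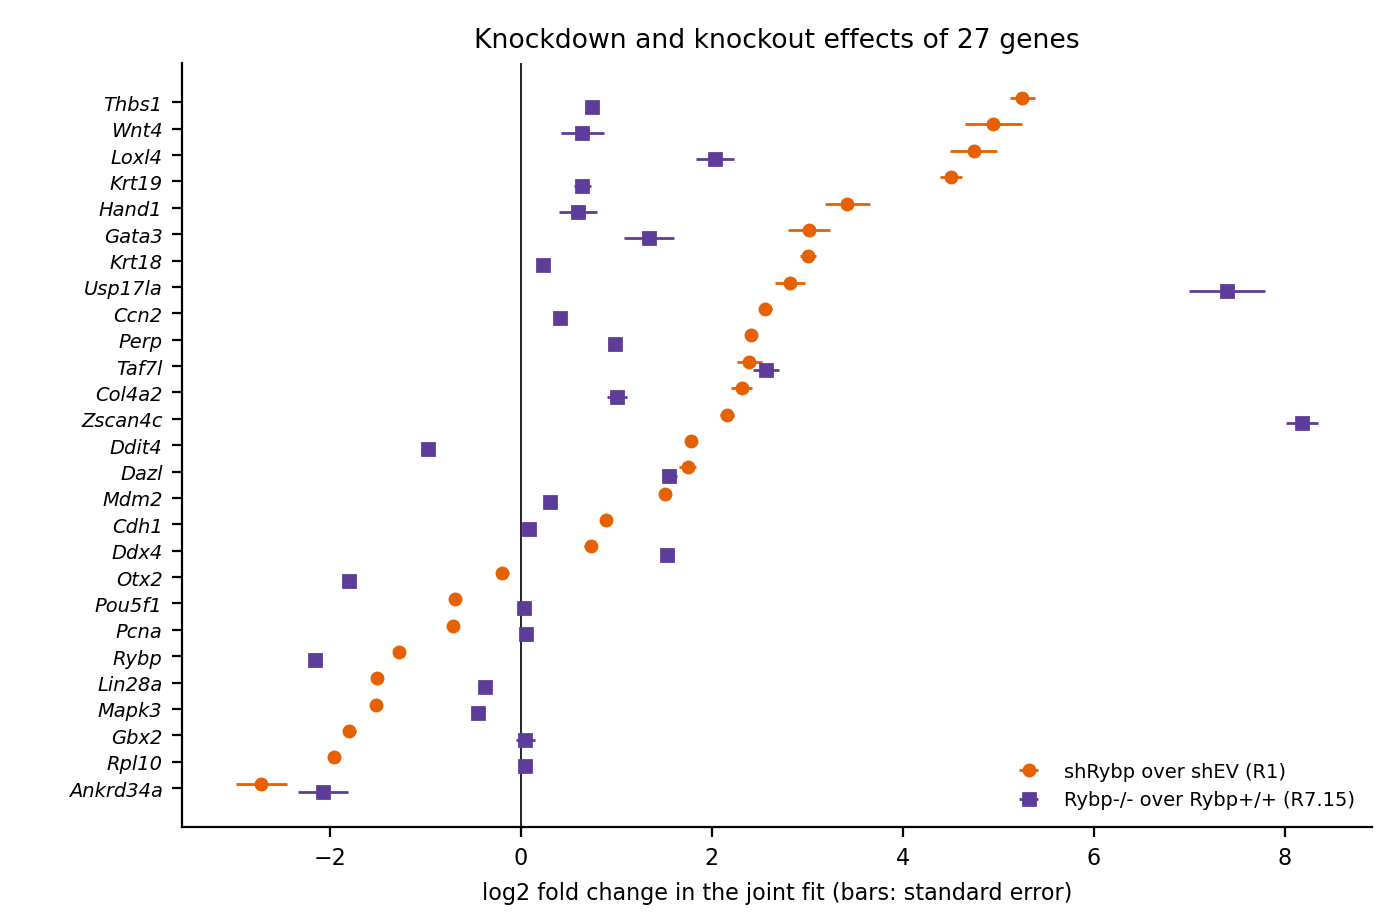
Log2 fold changes of 27 genes in the joint fit of 8 libraries: circles are shRybp over shEV in R1 ESCs, squares Rybp-/- over Rybp+/+ in R7.15 ESCs, and bars the standard error. Thbs1, Wnt4 and Krt19 lie further right in the knockdown and Zscan4c and Usp17la further right in the knockout. Zscan4c and Usp17la had few counts in Rybp+/+, so their places in the knockout depend on the prior count. The 2 values of Dazl and Taf7l lie close together.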

How the data were processed

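Per the submitters' processing notes, reads were trimmed with Trim Galore, aligned to mm9 with STAR and counted per gene with HTSeq; the strand setting is not given in the sources used here. The deposited tables hold raw read counts per gene made by the authors. Rows that name no gene held 22.1 to 23.8% of the knockdown table's counts and 13.7 to 14.1% of the knockout table's, and were left out. The shEV columns of the Wdr5 knockdown table total 0.509 and 0.506 of those used here, for a reason not given in the sources used here. The authors' peak lists give fold enrichment (a ratio) per peak, and only peak positions were used. In the tables used, 2 columns belong to no sample analysed here and were not used.

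Counts were tested with edgeR 4.0.16 in R 4.3.3 (filterByExpr, TMM, robust quasi-likelihood test, two-sided, Benjamini-Hochberg over the 16538 genes tested, called at an adjusted p under 0.05); DESeq2 1.42.0 was an alternative. RPKM was CPM divided by the gene length deposited with the counts. The common biological coefficient of variation was 0.0551. Replicates differed by more than sampling noise (chi-square per degree of freedom 7.85 in shEV and 5.06 in shRybp). The difference between knockdown and knockout was tested in one edgeR model over 8 libraries. The script was tested on simulated data. Gene models are those of mm9, in which 98.9% of IDs were found. Motifs were searched on both strands.

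The members and the 58 gene lists were chosen with earlier results of these data known, so no list was tested; lists overlap. Genes were named by rule: Rybp and Yaf2; fixed anchors of each list; up to 2 called genes per list and direction with the largest change and at least 1 CPM in the higher group; and the 15 largest rises and falls at 5 CPM or more, predicted genes left out; the text names those that describe each list, and a few items are not reported here. The chromosome 3 neighbours, the genes set beside the knockout and the promoters shown were chosen after values were seen. Zscan4a, Tcstv1, Tcstv3, Sox1, Hmgcs1 and Kcnq1ot1 were not analysed here. Alternatives changed scaling, filter, test, fold minimum and replicate block, and left out each library in turn.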

Additional observations from a re-analysis of the deposited data

Results flagged for a closer look

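In 24 of the 27 genes set side by side, the knockdown effect differed from the knockout effect by a test of the difference itself (edgeR, adjusted over 18203 genes, of which 18.3% were called higher and 22.2% lower in the knockdown). Values are the knockdown log2 fold change minus that of the knockout, and line, method and table cannot be told apart from it. The 27 genes were chosen with their values known, in part for a rise in the knockdown. The difference was positive for 12 genes that rose there: Thbs1 4.50, Wnt4 4.30, Krt19 3.86, Hand1 2.82, Krt18 2.77, Loxl4 2.71, Ccn2 2.15, Gata3 1.68, Perp 1.43, Col4a2 1.30, Mdm2 1.20 and Cdh1 0.81. The difference was positive for 3 others as well. Ddit4, at 2.76, moved in opposite directions, Otx2, at 1.60, fell in the knockout, and Rybp, at 0.87, had the larger fall in counts in the knockout.

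The difference was negative where the knockdown effect was lower. Among genes that fell in the knockdown it was -2.00 for Rpl10, -1.84 for Gbx2, -1.13 for Lin28a, -1.07 for Mapk3, -0.77 for Pcna and -0.71 for Pou5f1. Among genes that rose in both it was -6.02 for Zscan4c, -4.58 for Usp17la and -0.80 for Ddx4. Zscan4c (0.107 and 0.0392 CPM) and Usp17la had few counts in Rybp+/+, and the sizes of their values depend on the prior count. The control levels of several of these genes differ between the lines, and the part of that in the differences was not tested.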

How the results depend on the processing

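The count of 8749 called genes was 8745 with DESeq2's size factors, 8620 with the upper quartile, 8722 with library totals alone, 8767 without a filter, 6800 at 5 CPM or more and 7422 with DESeq2. It was 6923 to 8451 when 1 library was left out, 2509 against a log2 fold of 0.5 and 2081 above 2-fold. Rises were 1948 and 1883 in the last 2, and falls 561 and 198. Library totals alone moved the falls to 2511, those over 2-fold to 103, and the falls of cytosolic ribosomal proteins to 22, mitochondrial ribosomal proteins to 27, nuclear respiratory genes to 30 and variant PRC1 to 6. At 5 CPM or more, rises over 2-fold numbered 688 and falls 65, and rises fell to 8 (2-cell-like), 7 (primitive endoderm), 5 (keratins), 14 (collagens), 13 (matricellular) and 5 (Wnt). Rises over 2-fold by promoter were then 482 (both peaks), 106 (H3K4me3 only), 94 (neither) and 6 (RING1B only), and by level 0 in the lowest class and 176 in the next, since that filter leaves fewer genes. In the lowest class DESeq2 gave 438, and leaving out a library 355 to 622 (355 and 359 without either shRybp library). Library totals reversed Cbx7 (0.038), Ash2l (0.026), Trp53 (0.11) and Rps2 (0.10). Without shEV 1, Sox2 (-0.15), Fn1 (-0.13), Vcl (-0.18) and Mycn (-0.13) passed the test, as Otx2 (-0.24) did without shRybp 1. Other causes were not tested.

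Replicate numbers are shared by the groups but are not said to mark a pair, and deviations of same-numbered libraries correlated at 0.031 across genes. With the replicate block 9103 genes were called, 8717 of them shared with the fit without it. With 2 libraries per group, low counts limit which small changes could be called.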
